A study of Mus musculus with 15 samples.

Results

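The F191G and DQD forms of the transcription factor Twist1 were compared with each other in Myc-CaP cells, a mouse prostate cancer cell line from an animal with a Myc transgene. The comparison used the 3 arrays labelled F191G and the 3 labelled DQD, 6 of the 15 arrays of the series, and every gene read by a probe set with a single gene symbol, 19297 in all. F191G cells carried Twist1 with a mutation in the Twist box, and DQD cells carried the form of that name, whose change the labels do not spell out. The other groups, of 3 arrays each, carried the AQA form (AQA), wild-type Twist1 (WT) or an empty vector (VEC). All cells were transfected, selected and grown to confluence, so selection and the Myc-CaP background are common to every group. The labels give neither the promoter of the introduced gene nor whether the selected cells were 1 clone or a pool. They also do not say that replicates A, B and C came from separate cultures, so each p-value sets a difference against array-to-array spread, some of which may be technical.

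Twist1 is a basic helix-loop-helix protein that binds short DNA motifs called E-boxes as a dimer and is known for driving epithelial-mesenchymal transition, in which epithelial cells loosen their junctions and become motile. The Twist box lies near the end of the protein and serves in activating and repressing target genes and in binding partner proteins. In published work on this protein the name DQD stands for a form in which acidic residues replace phosphorylated residues of the helix-loop-helix region to mimic phosphorylation, and AQA for a form that cannot be phosphorylated there. The comparison therefore sets a form altered in its Twist box against one altered in another domain.

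Values are log2 expression values as deposited, and differences are F191G minus DQD from a limma model with group and array batch, so that a positive difference means higher in F191G. The labels give 2 batches. Replicate A of both forms lies in batch A, and replicates B and C of both lie in batch B. A gene was called when its p, adjusted by Benjamini and Hochberg over all 19297 genes, was under 0.05. Correlations between an F191G and a DQD array ran from 0.9957 to 0.9974 over the 9 pairs, against 0.9964 to 0.9980 within F191G and 0.9968 to 0.9979 within DQD, so arrays of the 2 forms were nearly as alike as replicates.

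A single gene, S1pr2, was called between the forms, which is 0.00518% of the genes tested, and it was higher in F191G. No gene was called lower. S1pr2 encodes a receptor for sphingosine-1-phosphate, a lipid signal that acts on cell migration. It read 8.50, 8.36 and 8.33 in F191G replicates A, B and C, against 7.78, 7.87 and 7.93 in DQD replicates A, B and C. The lowest F191G array lay above the highest DQD array. The difference was 0.54 (SE 0.0635, 95% interval 0.40 to 0.67), a 1.45-fold higher level, with a limma adjusted p of 0.0239. It was 0.72 in batch A and 0.44 in batch B.

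The call on S1pr2 was close to the threshold. The reported fit does not pair the replicate letters. With the replicate letter as a block beside batch the limma adjusted p was 0.193. With that block and no batch term it was 0.0741, and no gene was called with either block. Leaving out any 1 of the 6 arrays kept the difference between 0.47 and 0.58 and gave adjusted p-values between 0.0558 and 0.297.

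The other groups were set beside the 2 forms. In the same fit 19 genes (0.0985%) were called between F191G and VEC, 157 (0.814%) between DQD and VEC, 1375 (7.13%) between F191G and WT and 4735 (24.5%) between DQD and WT. These pairs share arrays, and the difference between such counts was not tested. The interquartile range of the values was 3.47, 3.56 and 3.41 log2 units in DQD arrays A, B and C. It was 3.43, 3.40 and 3.31 in F191G, 3.35, 3.29 and 3.27 in VEC, and 3.25, 3.34 and 3.30 in WT. The counts are for the deposited values alone, and their dependence on array scaling was not tested. WT replicate A stood apart, with correlations of 0.969 to 0.983 with the F191G and DQD arrays, against 0.990 to 0.997 for WT replicates B and C. Without it the counts against WT were 150 (0.777%) for F191G and 2118 (10.98%) for DQD, a setting chosen after the data were seen. S1pr2 read 8.18, 8.22 and 8.29 in AQA, 8.38, 8.42 and 8.34 in WT, and 8.10, 8.11 and 8.10 in VEC. DQD arrays were thus the lowest of all 15, and F191G arrays overlapped WT. Against VEC, with the same VEC arrays used for both, the difference was 0.29 for F191G (limma adjusted p = 0.119) and -0.24 for DQD (adjusted p = 0.0695). Against WT it was 0.02 for F191G (adjusted p = 0.882) and -0.52 for DQD (adjusted p = 0.00747), again with shared WT arrays. Without WT replicate A these were 0.02 (limma adjusted p = 0.922) and -0.52 (adjusted p = 0.0094). S1pr2 was picked by its p between the forms, so tests against VEC and WT reuse the same arrays and are no independent support.

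**Figure D1:**
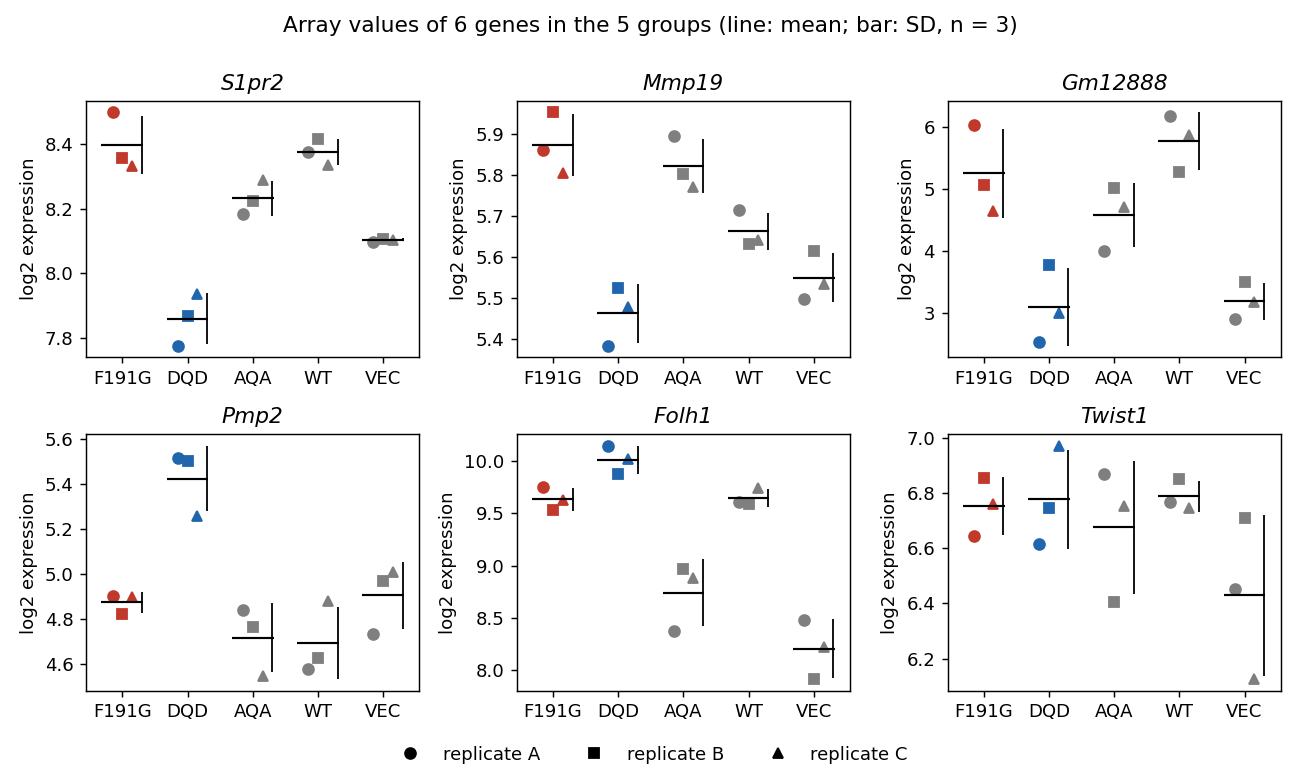
Log2 expression of 6 genes (vertical axes, each on its own range) in the 5 groups, 1 point per array with a shape for each replicate letter, a horizontal line at the mean and a vertical bar for the SD (n = 3). S1pr2, Mmp19 and Gm12888 lie higher in all F191G arrays than in all DQD arrays, Pmp2 and Folh1 lie lower, and the Twist1 values of the 2 forms overlap.

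The stretch before the S1pr2 start is shown because E-boxes, of the form CANNTG, are the motifs that Twist proteins bind. It holds the 250 bases upstream of the transcript start from RefSeq (GRCm38.p6, chr9:20976794-20977043, minus strand), with every CANNTG in capitals. CANNTG reads the same on both strands, and the 4 matches do not overlap each other.
S1pr2: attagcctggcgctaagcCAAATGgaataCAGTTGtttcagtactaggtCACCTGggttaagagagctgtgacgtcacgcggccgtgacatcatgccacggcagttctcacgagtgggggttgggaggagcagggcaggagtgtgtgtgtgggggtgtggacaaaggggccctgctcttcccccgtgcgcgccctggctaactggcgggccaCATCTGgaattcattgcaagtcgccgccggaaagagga
Of 32851 such windows in the RefSeq table, 21753 (66.22%) held at least 1 CANNTG and 1260 (3.835%) held 4 or more. A match describes the letters only.

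Below S1pr2, no gene passed the test. With predicted and clone names passed over, the next 9 genes higher in F191G had limma adjusted p-values of 0.165 to 0.488. They are given as values. In all, 1746 genes (9.05%) had an unadjusted p under 0.05, 1109 higher in F191G (5.75%) and 637 lower (3.30%). All 3 F191G arrays lay above all 3 DQD arrays in 1939 genes (10%) and below them in 1450 (7.51%). All 20 genes named in this way, 10 in each direction and S1pr2 included, had groups that did not overlap and the same sign in both batches. They were chosen by p, so this is a description.

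Mmp19, a secreted matrix metalloproteinase, read 5.86, 5.95 and 5.80 in F191G, against 5.38, 5.52 and 5.48 in DQD. The difference was 0.41 (SE 0.0649, limma adjusted p = 0.170). VEC averaged 5.55 and lay nearer to DQD, with a difference from VEC of 0.32 for F191G (adjusted p = 0.0949) and -0.09 for DQD (adjusted p = 0.442). Tnp1, the transition protein that replaces histones in maturing sperm, showed the other arrangement. It read 5.04, 4.91 and 5.14 in F191G and 4.65, 4.67 and 4.61 in DQD, a difference of 0.38 (SE 0.0644, adjusted p = 0.237). Here DQD was called lower than VEC by limma (difference -0.44, adjusted p = 0.0454), and F191G lay at -0.06 from VEC (adjusted p = 0.801). Tnp1 was chosen by p between the forms, which used the same DQD arrays, so this call is a description.

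The immune receptor gene Cd300lf, the carbonic anhydrase gene Car7 and Exoc3l, which is related to a gene of the exocyst, were placed like Tnp1. Cd300lf read 4.90, 4.89 and 4.90 in F191G, against 4.56, 4.56 and 4.49 in DQD. Its F191G arrays were within the VEC range, which ran from 4.81 to 4.99, and DQD lay below it. Differences between the forms were 0.36 for Cd300lf, 0.34 for Car7 and 0.37 for Exoc3l. DQD was called lower than VEC for all of them by limma (adjusted p = 0.0454 for Cd300lf, 0.0485 for Car7 and 0.0492 for Exoc3l). These calls, like that for Tnp1, lay close to the threshold, and these genes and Tnp1 read below their arrays' medians. The interquartile range of the values was wider in DQD arrays (3.41 to 3.56) than in VEC arrays (3.27 to 3.35). Whether the calls hold under another scaling was not tested. For Calcoco2, an autophagy receptor, the difference between forms was 0.43 and that of DQD from VEC -0.40 (limma adjusted p = 0.0544). The remaining genes of the 10 were the long non-coding RNA AU015836 (0.41, adjusted p = 0.165), Bex2 (0.35, adjusted p = 0.304) and the cyclin gene Ccnb3 (0.38, adjusted p = 0.439). Ccnb3 read 3.80, 3.59 and 3.91 in F191G and 3.39, 3.42 and 3.36 in DQD. In the set of 10 the F191G mean was within the VEC range in 3 genes and the DQD mean in none, and each form was the farther one from VEC in 5. The set was chosen by p between the forms, so these counts too are a description. The p-values against VEC reuse the arrays of that choice and are no independent support.

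Pmp2, a fatty-acid-binding protein of myelin, had the smallest p among genes lower in F191G, with predicted and clone names passed over. It read 4.90, 4.82 and 4.90 in F191G, against 5.51, 5.50 and 5.25 in DQD. The 2 groups did not overlap, and the difference was -0.55 (SE 0.109, 95% interval -0.79 to -0.31, limma adjusted p = 0.473). F191G lay at -0.03 from VEC (adjusted p = 0.950) and DQD at 0.52 (adjusted p = 0.0506). Hmgb1, an abundant chromatin protein, read 8.21, 8.32 and 8.30 in F191G and 8.77, 8.69 and 8.54 in DQD, a difference of -0.39. Ifna13, a type I interferon gene, averaged 3.35 in F191G and 3.79 in DQD, both low on the scale of these arrays, and differed by -0.44. Cwf19l2, named for its likeness to a yeast splicing factor, differed by -0.34. For these genes too the F191G mean was within the VEC range.

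Fzd7, a receptor for Wnt ligands, was placed differently. It read 7.49, 7.50 and 7.54 in F191G, against 7.89, 7.92 and 7.74 in DQD. The difference was -0.34 (SE 0.0782, limma adjusted p = 0.488). DQD lay at 0.01 from VEC and F191G at -0.33 (adjusted p = 0.148), and F191G was called lower than WT (difference -0.39, adjusted p = 0.0304). Without WT replicate A that difference was -0.41 (limma adjusted p = 0.0517). Kat6a, a histone acetyltransferase, also had a DQD mean near that of VEC (0.04) and an F191G mean farther off (-0.18), with -0.23 between the forms. The zinc finger gene Zfp35 (-0.49), the ciliary gene Rpgrip1l (-0.33), Kansl1l (-0.32) and the telomere-binding protein gene Terf2ip (-0.27) complete the 10. In this set the F191G mean was within the VEC range in 6 genes and the DQD mean in 1, and DQD was the farther form from VEC in 7. This set was also chosen by p between the forms. Its counts have no count over all genes beside them. Neither they nor the p-values against VEC and WT, which reuse the arrays of that choice, show which form departs from VEC.

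**Figure D2:**
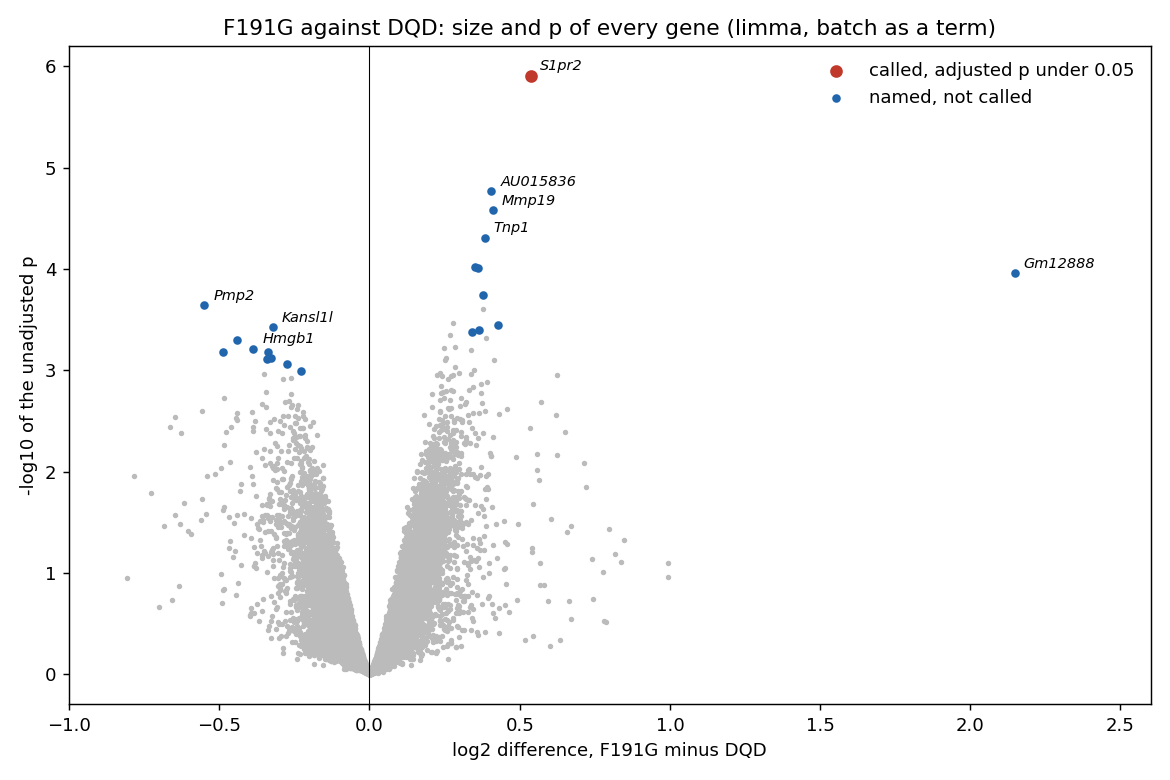
Every gene by its log2 difference, F191G minus DQD (horizontal axis), and the -log10 of its unadjusted limma p (vertical axis). S1pr2, in red, is the 1 called gene, the named genes that were not called are in blue, and Gm12888 lies far to the right at 2.15.

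The size of the differences was small across the table. The 95% interval lay within 0.5 of 0 on the log2 scale for 17833 genes (92.4%) and within 1, which is 2-fold, for 19171 (99.3%). The median SE was 0.0853. One gene had an estimate of 2-fold or more, the predicted gene Gm12888, which was singled out after its values were seen. It read 6.04, 5.07 and 4.65 in F191G, against 2.54, 3.78 and 3.00 in DQD. The difference was 2.15 (SE 0.393, 95% interval 1.30 to 3.00, limma adjusted p = 0.304), with 3.50 in batch A and 1.47 in batch B. DQD lay near VEC, which averaged 3.19, while WT averaged 5.78 and AQA 4.58. The difference from VEC was 2.06 for F191G (adjusted p = 0.0947) and -0.09 for DQD (adjusted p = 0.912).

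A total of 62 genes differed by 0.5 or more, 40 higher in F191G and 22 lower, and S1pr2 was the one called among them. Of the 40, DQD replicate A was the lowest of the 6 arrays in 35, and the WT mean lay above that of F191G in 30 and below in 10. Of the 22, DQD replicate A was the highest in 16, and the WT mean lay above that of F191G in 13 and below in 9. The WT means include WT replicate A, which stood apart, and these counts have no share over all genes beside them. Without DQD replicate A 10 of the 40 and 9 of the 22 still differed by 0.5 or more, and 36 genes in the whole table did. Leaving out 1 array moved that count both ways, up to 111 without DQD replicate B and 129 without F191G replicate A. Lcn2, which encodes the iron-siderophore carrier lipocalin, is an example, named after its values were seen. It read 8.96, 8.45 and 8.45 in F191G, against 6.21, 8.63 and 8.03 in DQD. The groups overlapped, with a difference of 0.99 (SE 0.579, limma adjusted p = 0.621) that was 2.75 in batch A and 0.12 in batch B.

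Differences also varied with how bright a gene was on the arrays. With the genes in 10 equal bins by mean level, from dim to bright, the median difference was 0.02, 0.05, 0.07, 0.07, 0.07, 0.01, -0.04, -0.04, -0.03 and -0.02. Dimmer genes thus tended to read higher in F191G, and brighter ones lower. Among the 9648 dimmer genes all F191G arrays lay above all DQD arrays in 1380 and below in 277, and among the 9649 brighter ones in 559 and 1173. The interquartile range of the values was 3.43, 3.40 and 3.31 log2 units in F191G arrays A, B and C, against 3.47, 3.56 and 3.41 in the DQD arrays. After a new quantile normalization, which gives all arrays the same spread, the bins had medians between -0.01 and 0.01. The genes with an unadjusted p under 0.05 then were 688 higher and 750 lower (47.8% higher, against 63.5% in the deposited values), and with arrays centred on their medians they were 501 higher and 1240 lower (28.8% higher). Centring moved every difference by -0.04. The share of genes higher or lower therefore depended on the scaling. Of the 10 named genes higher in F191G, 9 read below their arrays' medians, and of the 10 lower, 4 did.

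**Figure D3:**
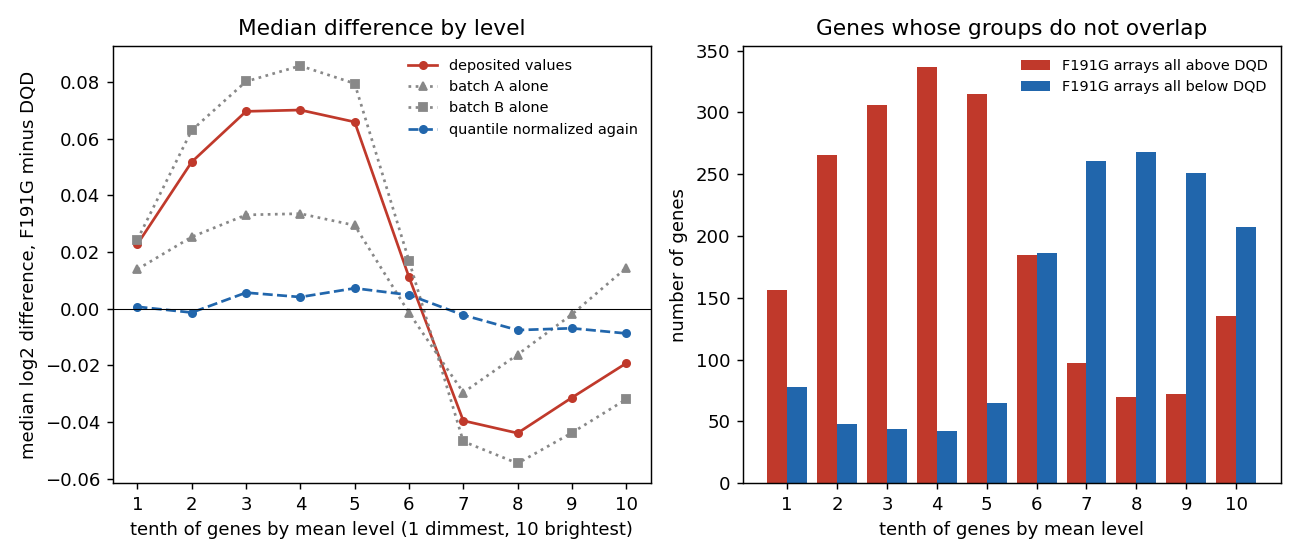
Left, the median log2 difference, F191G minus DQD, of genes in 10 equal bins by mean level, for the deposited values, for each batch alone and after a new quantile normalization. Right, the number of genes per bin whose F191G arrays all lie above (red) or all below (blue) the DQD arrays. The deposited medians are 0.07 in the fourth bin and -0.04 in the eighth, and the renormalized ones stay between -0.01 and 0.01.

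Twist1 itself did not separate the forms. Its probe set read 6.65, 6.85 and 6.76 in F191G (mean 6.75 ± 0.10, SD, n = 3), against 6.62, 6.74 and 6.97 in DQD (mean 6.78 ± 0.18). The difference was -0.02 (SE 0.147, 95% interval -0.34 to 0.29, limma adjusted p = 0.966). VEC averaged 6.43, and neither form passed the test against it (adjusted p = 0.429 for F191G and 0.183 for DQD). The labels do not say which stretch of Twist1 its probes read, and the level is no check on which form a culture carried. Per the labels, values were also normalized by Twist1 expression, in a form not given. If that touched the deposited values, alike Twist1 levels were set in advance, so they cannot show that the forms were expressed alike.

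No gene of the epithelial-mesenchymal transition set was called between the forms. The sister gene Twist2 differed by -0.12, the E-cadherin gene Cdh1 by 0.09 and the N-cadherin gene Cdh2 by 0.07. The intermediate filament gene Vim differed by 0.004 and the fibronectin gene Fn1 by -0.07. Of the repressors of Cdh1, Snai1 read 6.74, 6.69 and 6.76 in F191G, against 6.52, 6.46 and 6.64 in DQD. The groups did not overlap, with a difference of 0.19 (SE 0.0647, limma adjusted p = 0.523). Zeb2 differed by -0.13 (adjusted p = 0.525), Snai2 by -0.01 and Zeb1 by 0.02. The sign for Vim, Snai2, Zeb1 and Twist1 turned under some alternatives. Vim and Zeb1 had the opposite sign with median centring, and Zeb1 also after a new quantile normalization.

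Folh1, which encodes prostate-specific membrane antigen, showed both forms far from VEC. It read 9.75, 9.53 and 9.63 in F191G, against 10.15, 9.88 and 10.02 in DQD, and VEC averaged 8.21. This was not particular to the 2 forms, as WT averaged 9.65 and AQA 8.74. The 2 forms did not overlap, with a difference of -0.38 (SE 0.158, 95% interval -0.72 to -0.04, limma adjusted p = 0.525). Against the shared VEC arrays both were called higher, F191G by 1.43 (adjusted p = 0.00801) and DQD by 1.81 (adjusted p = 0.000989). The homeobox gene Hoxa9 differed by -0.13 (adjusted p = 0.693) and Myc by 0.08 (adjusted p = 0.881) between the forms.

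Of 26 gene lists with 1008 measured genes, no member was called in either direction, and 84 (8.33%) had an unadjusted p under 0.05, near the 9.05% of all genes. That share differed by list, with the highest, 23.1%, for mesenchymal genes and 0% in 3 lists, and no test was made of it. List medians ran from -0.10 to 0.14, against 0.02 for all genes. After a new quantile normalization they ran from -0.08 to 0.09.

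Matrix and adhesion genes came first. Of 48 collagens and matrix proteins, 38 had a positive estimate, against 55.9% of all genes, and the median was 0.11. That median was 0.07 after a new quantile normalization. Unadjusted p-values under 0.05 were 8 higher and 2 lower. The fibril-associated collagen gene Col12a1 read 7.19, 7.04 and 7.01 in F191G, against 7.93, 7.43 and 7.55 in DQD, and differed by -0.56 (SE 0.149, limma adjusted p = 0.488). Its groups did not overlap, and it lay opposite to the list's median. The laminin chain genes Lama4 and Lama3 differed by 0.25 and -0.21. Of 44 matrix proteases and inhibitors, 4 had such a p, all higher in F191G. They were Mmp19, the secreted protease genes Adamts9 (0.33) and Htra1 (0.35), and Timp2, an inhibitor of metalloproteinases (0.45). Timp2 read 10.89, 10.72 and 10.80 in F191G, against 10.18, 10.56 and 10.34 in DQD. The 38 integrin and focal adhesion genes had 18 positive and 20 negative estimates and a median of -0.004, with the integrin gene Itga3 at 0.18 and the paxillin gene Pxn at -0.19.

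Epithelial and mesenchymal genes were next. Of 49 epithelial junction and keratin genes, 5 had an unadjusted p under 0.05 in the higher direction and 1 in the lower. The median was 0.08, and 0.03 after a new quantile normalization. Krt7, a keratin of simple epithelia, read 8.52, 8.30 and 8.45 in F191G, against 7.62, 8.07 and 7.89 in DQD, a difference of 0.56 (SE 0.193, limma adjusted p = 0.522). The desmoplakin gene Dsp differed by 0.21, the polarity gene Crb3 by 0.28 and Cd24a by -0.28. Of 39 mesenchymal genes, 6 and 3 had such a p, with a median of 0.03. Tagln, an actin-binding protein of smooth muscle, read 6.39, 5.90 and 6.25 in F191G, against 5.50, 5.66 and 5.78 in DQD. Its groups did not overlap, and its difference was 0.54 (SE 0.151, adjusted p = 0.488). The matrix gene Tnc differed by -0.20 and the transcription factor gene Klf8 by -0.28.

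Among signalling lists, the 53 Wnt and Notch genes had a median of 0.07, and 0.03 after a new quantile normalization. At an unadjusted p under 0.05, 4 were higher in F191G and 3 lower. Beside the receptor Fzd7, these included the co-receptor gene Lrp6 (-0.21), the ligand genes Wnt6 (0.24) and, for Notch, Dll4 (0.20). Of 46 TGF-beta and BMP genes, 2 and 1 had such a p, with a median of 0.05 (0.03 after a new quantile normalization). The type I receptor genes Acvrl1 and Acvr1 differed by 0.25 and -0.22. Of 56 growth factors and receptor kinases, 4 and 0 had such a p, Igf2 (0.18), Fgf1 (0.28), Fgfr1 (0.16) and Erbb4 (0.15). Their list's median was 0.08, and 0.05 after a new quantile normalization.

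The helix-loop-helix genes that include partners of Twist1 had 6 higher and 3 lower at an unadjusted p under 0.05, of 43, with a median of 0.05 that was -0.0004 after a new quantile normalization. Mitf, a regulator of pigment cells and lysosomes, read 7.65, 7.59 and 7.62 in F191G, against 7.83, 8.01 and 7.78 in DQD, a difference of -0.26 (SE 0.0661, limma adjusted p = 0.488). Hand1, a developmental relative of Twist1, differed by 0.27, the haematopoietic factor gene Tal1 by 0.22 and Arnt, the common partner of hypoxia factors, by -0.20. Of 43 Hox, Meis and Pbx genes, 3 and 2 had such a p, with a median of -0.01. Hoxd3 read 5.75, 5.74 and 5.74 in F191G, against 5.52, 5.46 and 5.39 in DQD, a difference of 0.29 (SE 0.0632, adjusted p = 0.488). Hoxc9 differed by -0.39 and the Hox cofactor gene Pbx2 by -0.20.

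In the inflammatory lists the share with an unadjusted p under 0.05 was 2.27% (NF-kB and chemokines), 2.38% (interferon response) and 13.0% (antigen presentation). Over all genes it was 9.05%, and these shares, of 1 to 3 genes a list, were not tested. Of 44 NF-kB pathway and chemokine genes, 1 had an unadjusted p under 0.05, the neutrophil chemokine gene Cxcl5. It read 7.32, 7.45 and 7.16 in F191G, against 8.03, 7.70 and 7.65 in DQD. The groups did not overlap, and the difference was -0.48 (SE 0.124, limma adjusted p = 0.488). VEC averaged 8.32, and against it F191G was called lower by limma (difference -1.01, adjusted p = 0.0119), while DQD lay at -0.53 (adjusted p = 0.0604). WT averaged 7.02 and AQA 7.47 for Cxcl5. Of 42 interferon response genes, 1 had such a p (Cmpk2, 0.21), and the median was -0.04. Estimates were positive in 18 and negative in 24, and ran from -0.70 for Ifitm3 to 0.995 for Ifit3. Ifit3, an interferon-induced inhibitor of viral RNA translation, read 7.48, 8.44 and 8.19 in F191G, against 6.23, 7.91 and 6.99 in DQD. The groups overlapped, and the difference of 0.995 had a 95% interval of -0.14 to 2.13. Against VEC, at 4.27, Ifit3 was called higher in both forms by limma, by 3.76 in F191G (adjusted p = 0.0277) and 2.77 in DQD (adjusted p = 0.0474). Its mean was 9.29 in WT and 7.76 in AQA. Of 23 antigen presentation genes 3 had such a p (13.0%), all higher in F191G: Cd74 (0.24), the immunoproteasome gene Psmb8 (0.31) and H2-Ab1 (0.26).

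In the cell cycle lists no gene had an unadjusted p under 0.05, and estimates leaned one way. All 43 mitosis genes had a negative estimate, with a median of -0.10, and 36 of 43 replication genes did, with a median of -0.07, against 44.1% of all genes. After a new quantile normalization the medians were -0.08 and -0.04. The spindle checkpoint kinase gene Ttk read 8.61, 8.17 and 8.16 in F191G, against 8.68, 8.39 and 8.52 in DQD. Its groups overlapped, replicate A was the highest array of each form, and the difference was -0.22 (SE 0.271, limma adjusted p = 0.824). Ttk read 6.65, 7.90 and 7.85 in WT replicates A, B and C, and without WT replicate A, a setting chosen after the data were seen, its SE was 0.141 (adjusted p = 0.570). Without that array, too, no gene of these lists had an unadjusted p under 0.05. Genes of these lists tend to move together, so the count of signs is not a count of independent genes.

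Metabolic and stress lists had medians from -0.03 to 0.06. Cholesterol and fatty acid synthesis had 0 of 34 genes at an unadjusted p under 0.05 and a median of -0.01, Myc network and ribosome genes 1 of 45 (the nucleolar gene Npm1, -0.17), and hypoxia and glycolysis 1 of 38 (Pfkfb3, 0.28). Of 36 Nrf2 and oxidative stress genes, 1 was higher and 2 lower at that p, among them the haem oxygenase gene Hmox1. It read 7.63, 7.76 and 7.61 in F191G, against 7.92, 7.99 and 7.83 in DQD, a difference of -0.25 (SE 0.0688, limma adjusted p = 0.488). The cystine transporter gene Slc7a11 differed by -0.69 (95% interval -1.31 to -0.06), with -1.52 in batch A and -0.27 in batch B. It was the 1 stress response gene of 45 with such a p. Among 37 p53 targets and cell cycle inhibitors there were 2, Cdkn1c (0.14) and Polk (-0.22), and among 40 lysosome and autophagy genes 1, Map1lc3a (0.38).

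The last lists covered tissue programmes. Acute-phase and plasma proteins had the highest median, 0.14, which was 0.09 after a new quantile normalization. Of these 33 genes, 2 were higher and 1 lower at an unadjusted p under 0.05. Apoa1 differed by 0.28, Ttr by 0.21 and Itih2 by -0.21. Androgen response and luminal prostate genes had 1 higher (Pmepa1, 0.23) and 2 lower (Abcc4, -0.14, and Folh1) of 34. Circadian clock genes had 2 higher (Hlf, 0.18, and Bhlhe41, 0.18) and 1 lower (Arntl, -0.34) of 22. Of 38 cytoskeleton and muscle genes, 5 were higher and 2 lower at that p, among them Tnnt3 (0.25), Myocd (-0.30) and Mustn1 (-0.43).

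**Figure D4:**
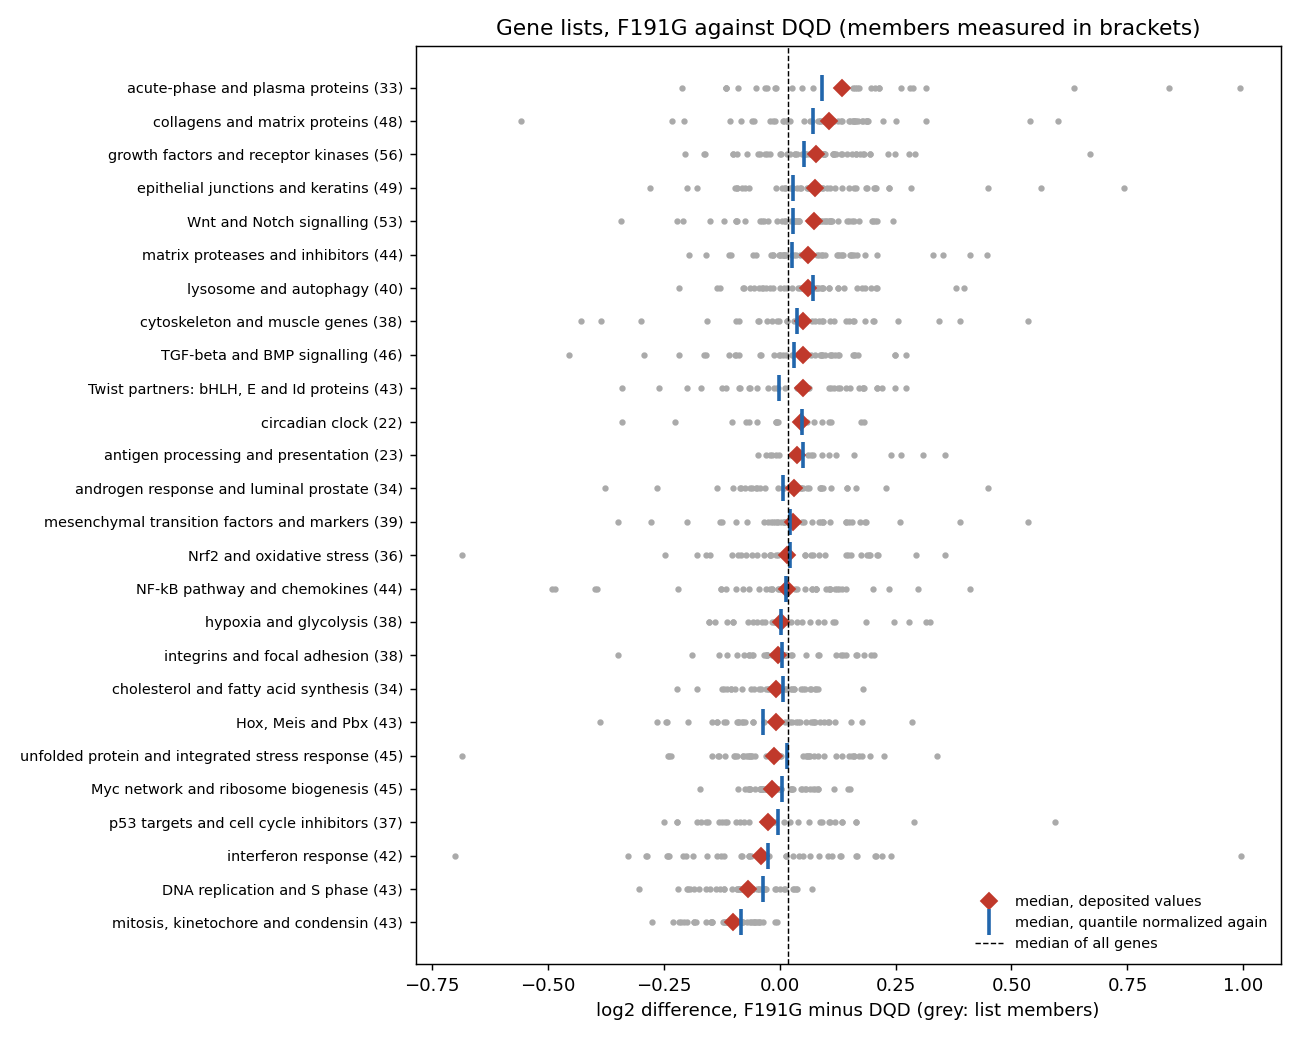
Log2 differences, F191G minus DQD (horizontal axis), of the measured members of 26 gene lists (grey points, number of members in brackets), with each list's median in the deposited values (red) and after a new quantile normalization (blue). The dashed line marks the median of all genes, 0.02, and list medians run from -0.10 for mitosis genes to 0.14 for acute-phase and plasma proteins.

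Markers of the cell line and of other cell types were set beside these results. Of the prostate and Myc-CaP markers, 8 were measured and none had an unadjusted p under 0.05. Krt8, a luminal keratin, read 8.15, 7.99 and 8.11 in F191G, against 7.53, 7.80 and 7.58 in DQD, a difference of 0.45 (SE 0.246, limma adjusted p = 0.594). Krt19 read 6.999, 7.17 and 7.23 in F191G, against 6.29, 6.53 and 6.35 in DQD, a difference of 0.74 (SE 0.523, adjusted p = 0.675). The groups did not overlap for either keratin. The SE pools the spread of all 5 groups, with an SD of 1.57 in VEC for Krt19. Cdh1 and Epcam, which define epithelia, read below their arrays' medians in both forms, at 5.54 and 5.02 in F191G and 5.45 and 4.95 in DQD. The androgen receptor gene was not analysed here. None of the 5 endothelial, 8 fibroblast or 4 neural markers had an unadjusted p under 0.05. Of 7 haematopoietic markers, Cd3e (0.24) and Cd14 (-0.30) did, and the pan-leukocyte gene Ptprc averaged 4.46 in both forms.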

How the data were processed

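RNA of Myc-CaP cells was read on 15 single-colour Affymetrix arrays, and the authors deposited log2 values made with RMA and limma, per the submitters' processing notes. The notes used here give no versions. Per the labels, values were also normalized by Twist1 expression, in a form not given, and its effect on the deposited log2 values is unknown. Deposited values ran from 1.41 to 13.6, with array medians of 6.31 to 6.42. No detection calls were used. Precision is limited by having 3 arrays a group.

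Of 23811 probe sets, 20852 had 1 symbol, 1440 several and 1519 none in the table used. Symbols were checked by identifier against RefSeq (20805 matched, 0 differed). The probe set with the highest mean was kept for 846 genes with more than 1. limma 3.58.1 in R 4.3.3 fitted group and batch to all 15 arrays (8 in batch A, 7 in batch B; 9 residual and 3.93 prior degrees of freedom). Same-letter arrays of the 2 forms deviated together from their group means (correlations 0.170, 0.225 and 0.177), and different letters did not (-0.160 to -0.052). The reported fit does not take the letters as pairs, and a block for the letter was fitted as an alternative. In these groups the letter A also marks the batch.

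Named genes are called ones, then those of smallest p up to 10 a direction, up to 4 members of each list by p, and a set around Twist1, without predicted or clone names (AU015836 is outside the patterns of that exception). Members and lists were chosen with earlier results of these data known. The fit was also run on simulated data with independent noise for every gene and array. Such data lack the shared deviations of same-letter arrays, so they do not bear on the S1pr2 call. Alternatives were a replicate block (batch kept or dropped), no batch term, a Twist1 covariate, the 6 arrays alone, new quantile normalization, median centring, no dimmest 33.3%, all probe sets, array weights, a trend with robust moderation, single batches, and each array or WT replicate A left out. Figures used matplotlib 3.10.9.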

Additional observations from a re-analysis of the deposited data

How the results depend on the processing

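Of 20 alternatives to the limma model, 13 called no gene, 6 called S1pr2 alone, and array weights called 2, S1pr2 and AU015836 (adjusted p = 0.0396). The count was 0 with the replicate block with batch (1435 genes at an unadjusted p under 0.05), with the block without batch (1519), with the Twist1 value as a covariate (1671), with the 6 arrays alone (2239), with median centring (1741), in batch A alone (665), in batch B alone (2055, 2 arrays of each form) and without each array in turn (0 to 0 called, 970 to 2066 at that p). The S1pr2 difference lay between 0.44 and 0.72 in all 20. Its adjusted p was 0.0652 with the covariate, 0.213 with the 6 arrays, 0.202 with median centring (difference 0.49), close to 1 in batch A (1 array of each form, with the spread from other groups only, so that it says nothing about stability) and 0.435 in batch B, and from 0.00637 to 0.0335 in the 7 that kept the call. The block changed no other call. No list member was called in any alternative.

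The Twist1 difference turned to 0.03 with array weights (0.031) and in batch A (0.030), and ran from -0.13 to 0.08 without single arrays (0.043 without F191G replicate A, 0.078 without DQD replicate C). Myc turned to -0.086 in batch B and -0.104 without F191G replicate A (-0.104 to 0.217 without single arrays). Snai2 turned to 0.137 in batch B, and ran from -0.107 to 0.084 without single arrays (0.084 without DQD replicate A, 0.077 without F191G replicate A). Vim turned to -0.040 with centring, -0.025 with array weights and -0.062 in batch B, and ran from -0.092 to 0.065 without single arrays (-0.092 without F191G replicate A, -0.016 without DQD replicate B). Zeb1 turned to -0.035 after quantile normalization and -0.019 with centring, and ran from -0.021 to 0.075 without single arrays (-0.021 without DQD replicate A, -0.013 without F191G replicate C). None of these was called, and the cause was not tested. Levels near the bottom of the scale carry little signal over background, which limits dim genes.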

Other observations

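Further genes that differed by 0.5 or more, named after their values were seen, add surface and secreted proteins, and none was called by limma. The adhesion molecule gene Mcam read 7.90, 7.43 and 7.48 in F191G, against 7.004, 7.061 and 7.027 in DQD, and VEC averaged 7.16 (difference 0.57, SE 0.149, adjusted p = 0.488). Ly96, a partner of the endotoxin receptor, read 8.17, 7.72 and 7.71 in F191G, against 8.42, 8.62 and 8.44 in DQD (difference -0.63, SE 0.181, adjusted p = 0.488). The oestrogen sulphotransferase gene Sult1e1 read 2.93, 3.57 and 3.34 in F191G, against 2.76, 2.59 and 2.63 in DQD, and the small nuclear body RNA gene Scarna17 read 10.08, 10.80 and 10.67 in F191G, against 9.95, 9.80 and 9.85 in DQD. In each of these 4 genes the groups did not overlap. They did not overlap in 40 of the 62 genes of this size either, which were chosen by that difference, against 17.6% of all genes.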
